A study of Mus musculus with 6 samples.

Results

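The 10 genes described here encode the serine synthesis enzymes Phgdh, Psat1 and Psph, the mitochondrial one-carbon enzymes Shmt2 and Mthfd2, asparagine synthetase (Asns), the amino acid transporter subunits Slc7a5, Slc3a2 and Slc7a11, and the pseudokinase Trib3. They were chosen by name, as amino acid synthesis and transport genes that the transcription factor ATF4 is known to drive, out of the 55376 genes in the count table. All 10 passed the filter on low counts, among the 18054 genes tested. The study asked which messages the RNA-binding protein CPEB4 is bound to in mouse muscle stem cells, by RNA immunoprecipitation and sequencing (RIP-seq). The cells came from C57BL/6 mice 3 months old and were isolated by fluorescence-activated sorting. RNA was recovered with an antibody to CPEB4 (CPEB4 RIP, 2 libraries) or with a nonspecific IgG (IgG RIP, 2 libraries), and unprecipitated RNA was sequenced as input (Input, 2 libraries). No gene was altered and no drug was given in any group, as far as the labels state. The CPEB4 pair is described as biological replicates in the design text, without naming animals, so the p-values measure the spread between these libraries, which may in part be technical.

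ATF4 is the effector of the integrated stress response, in which phosphorylation of the initiation factor eIF2 lowers general translation while translation of the Atf4 message rises. ATF4 pairs with C/EBP proteins at composite promoter elements and turns on genes that make amino acids, import them and charge transfer RNAs, so that cells short of amino acids can refill their pools. CPEB4 is a cytoplasmic polyadenylation element binding protein, which attaches to uridine-rich elements in the tails of messages and influences their poly(A) length and translation. A RIP compares how much of a message is recovered with the antibody, so a value here is a share of a library and not a rate of transcription or translation. Each library pools many cells, and fewer cells holding a message cannot be told apart from less of it in each cell.

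Libraries held 9018323 to 20843042 counts. The 2 CPEB4 RIP libraries correlated at 0.981 and the 2 inputs at 0.975 over log CPM, while the 2 IgG RIP libraries stood further apart at 0.873. Of the 10 genes, 8 had a higher value in IgG RIP replicate 2 than in replicate 1, against 51.6% of all genes tested. All 10 satellite cell markers, among them Pax7 and Myf5, were detected in every library. They summed to 63545 to 69384 CPM (counts over a library size scaled by trimmed means of log ratios) with the CPEB4 antibody, 61626 to 62945 with IgG and 46392 to 47651 as input. Erythroid markers, of which 5 of 6 were detected in every library, summed to 328 to 658 CPM with the CPEB4 antibody, 88.0 to 147 with IgG and 109 to 179 as input. Fibro-adipogenic markers, 7 of 7 detected, summed to 1549 to 2037, 966 to 1374 and 652 to 859 CPM in the same order. Myofibre markers (9 of 9 detected) summed to 203 to 260, 118 to 149.98 and 125 to 187 CPM, leukocyte markers (7 of 9) to 61.6 to 84.1, 41.3 to 53.8 and 34.5 to 41.3, and endothelial markers (6 of 6) to 311 to 434, 208 to 283 and 234 to 264. Pericyte and tenocyte or Schwann markers overlapped between CPEB4 RIP and IgG RIP. No marker of any list was at 0 in all libraries, and the part of other cells in the values of the 10 genes was not tested.

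The element that ATF4 is known to read was looked for in the promoters of these genes. Promoter sequence, 250 bases before to 50 after the annotated start, was available from RefSeq on GRCm38.p6 for 9 of the 10 genes. Slc7a5 had no entry. The core TGATGNAA was searched on both strands, and was the only motif searched. It was found in 3 of these 9 genes (33.3%), against 1219 of 27025 genes in the whole promoter table (4.51%). Phgdh, Psat1, Psph, Shmt2, Mthfd2 and Slc3a2 did not hold it. The genes were chosen as known ATF4 targets, so this contrast is not independent of the choice. In the lists of related genes it was in 6 of 12 other ATF4 targets, 1 of 13 regulators, 0 of 16 serine, glycine and one-carbon genes, 2 of 12 other synthesis genes and 2 of 21 other transporters. The 3 stretches that hold it are shown because they carry the match, written 5′ to 3′ in the direction of the gene, with the core in capitals. All 3 genes lie on the minus strand of mm10.
Asns, chr6:7693215-7693242: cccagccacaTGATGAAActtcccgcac
Slc7a11, chr3:50443652-50443680: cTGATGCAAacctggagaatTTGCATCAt
Trib3, chr2:152344029-152344056: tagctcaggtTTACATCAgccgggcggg
In Asns the core reads in the direction of the gene and begins 23 bases before the start. Slc7a11 holds 2 copies in opposite directions, beginning 66 and 47 bases before the start used in the promoter table, which lies inside the RefSeq gene interval given with its values. In Trib3 the core is on the other strand and begins at position 15 after the start. These are matches of letters, and no binding of ATF4 was measured.

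Levels were compared between genes as FPKM, which divides by gene length. In Input, Slc3a2 was highest by a wide margin with 194 ± 6.63 FPKM (SD, n = 2), followed by Mthfd2 with 19.4 ± 3.05 and Psat1 with 9.90 ± 1.98. Phgdh at 6.74, Shmt2 at 5.59 and Slc7a5 at 5.24 FPKM came next, and the libraries of Shmt2 and Slc7a5 overlapped. Asns (3.18), Psph (2.49) and Trib3 (1.97) formed a lower group in which each overlapped its neighbour, and Slc7a11 was lowest with 0.263 FPKM. Slc3a2 and Mthfd2 led and Slc7a11 was last in all 3 groups. The place of Slc7a5 differed between groups: it had rank 6 in Input, 4 in IgG RIP and 3 in CPEB4 RIP, where its 22.4 ± 0.266 FPKM overlapped neither Mthfd2 above it nor Phgdh below it. In IgG RIP the genes of ranks 3 to 9 each overlapped the next, so their order there is not resolved.

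**Figure D1:**
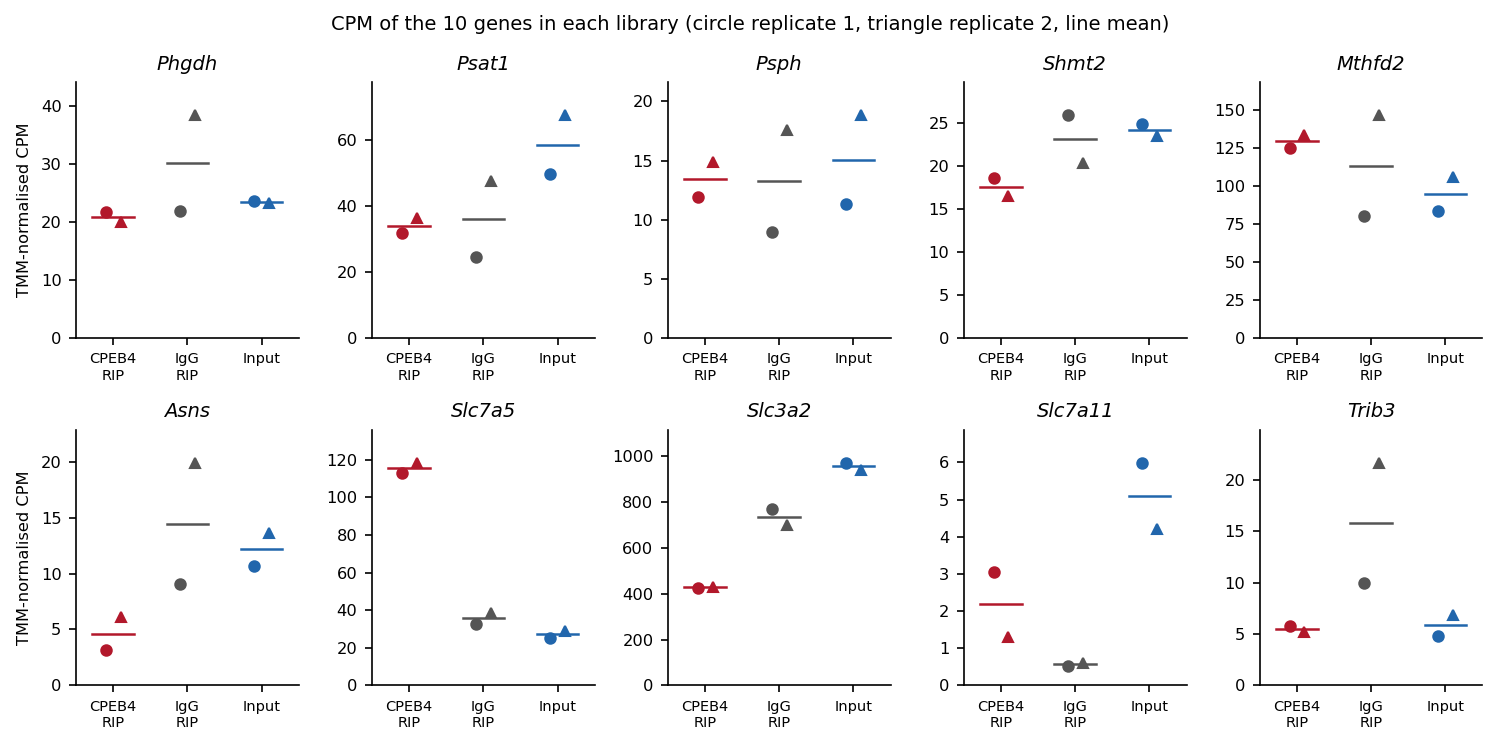
CPM of the 10 genes in each of the 6 libraries, 1 panel per gene with its own axis from 0. Circles are replicate 1, triangles replicate 2 and lines group means; the CPEB4 RIP points lie above all 4 other libraries for Slc7a5 and below all 4 for Slc3a2.

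The light and heavy chains of the amino acid transporter LAT1 differed from both backgrounds, in opposite directions. The other 8 genes did not pass the main edgeR test, and some passed in alternatives given below. By DESeq2 on the same 6 libraries, Asns and Trib3 were also lower than IgG RIP, and Asns and Psat1 lower than Input, where DESeq2 called 16% and 19.3% of all genes. In CPEB4 RIP against IgG RIP, 1 of the 10 was called higher (Slc7a5) and 1 lower (Slc3a2), where 8.21% of all genes tested were called, 4.79% higher and 3.42% lower. Against Input the same 2 genes were called in the same directions, where 12.7% of all genes were called, 8.0% higher and 4.70% lower. In IgG RIP against Input, edgeR called none of the 10 and 0% of all genes. At an unadjusted p under 0.05 there were 3 of the 10 and 2550 of all genes, and DESeq2 called 0 of the 10 and 706 of all. A gene is called here at an edgeR adjusted p under 0.05.

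**Figure D2:**
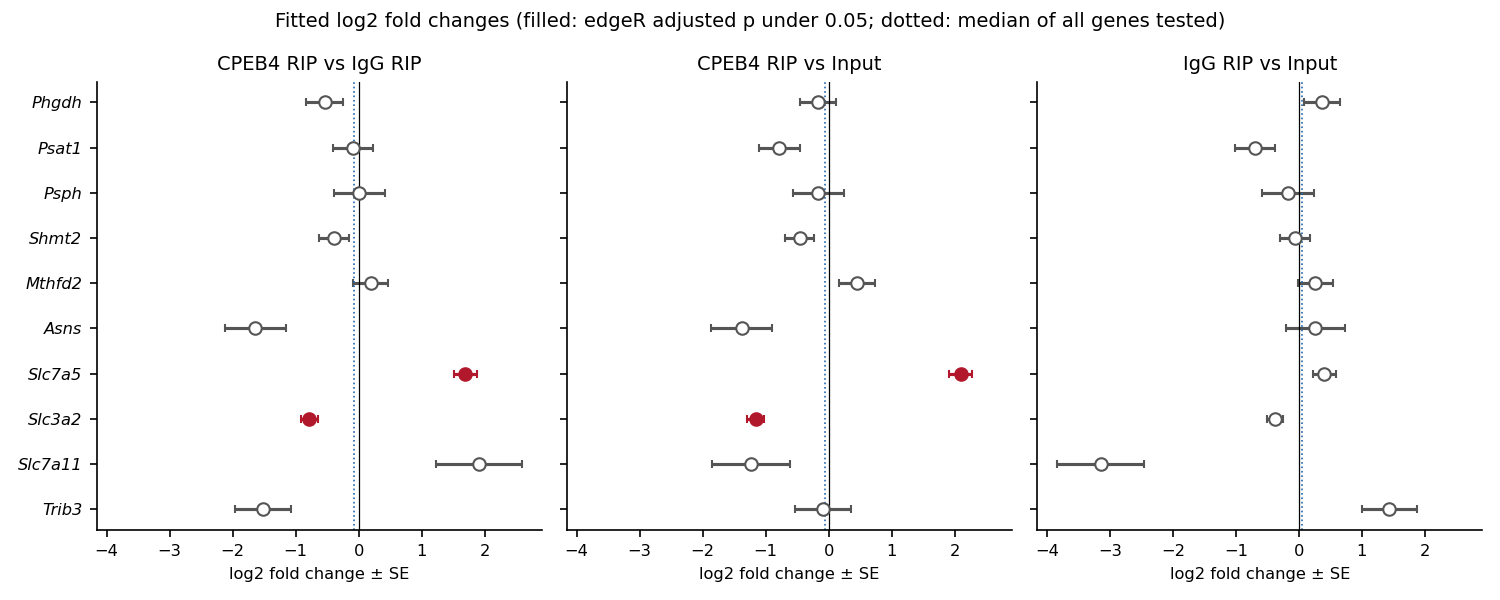
Fitted log2 fold changes with their SE for the 10 genes in the 3 comparisons of groups, 1 panel each. Filled points passed the edgeR test at an adjusted p under 0.05 and the dotted line is the median of all genes tested; Slc7a5 is filled to the right and Slc3a2 to the left in both CPEB4 RIP panels, and IgG RIP against Input has no filled point.

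Slc7a5 encodes LAT1, the light chain that carries leucine and other large neutral amino acids across the plasma membrane. It lies at chr8:121881146-121907686 (mm10). Its level was 113 and 118 CPM in the CPEB4 libraries, 32.8 and 38.5 with IgG and 25.0 and 29.2 as input. Both CPEB4 RIP libraries stood far above the other 4, and the IgG RIP libraries lay just above the inputs. The message was 3.24-fold higher in CPEB4 RIP than in IgG RIP (log2 fold change 1.69, SE 0.18, edgeR quasi-likelihood adjusted p = 0.00719). Over Input it was 4.27-fold higher (log2 2.09, SE 0.19, edgeR adjusted p = 0.00184). These comparisons share the CPEB4 RIP libraries. Over IgG RIP, Slc7a5 no longer passed when CPEB4 RIP replicate 2 was left out (log2 1.71). It also did not pass with an offset for gene length (log2 1.60, edgeR adjusted p = 0.0861). Neither of these refits called any gene over IgG RIP. By relative length Slc7a5 stood at percentile 48.2 of the genes tested and its partner Slc3a2 at 45.7. The call over Input held in 17 of 17 alternatives, with log2 values of 1.88 to 2.31.

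Slc3a2, at chr19:8706882-8723369, encodes the CD98 heavy chain, the glycoprotein that brings LAT1 to the cell surface. It stood at 426 and 429 CPM after CPEB4 RIP, 769.7 and 698 after IgG RIP, and 970.3 and 942 unprecipitated. The 3 groups did not overlap, with CPEB4 RIP lowest and Input highest. Slc3a2 was 1.72-fold lower in CPEB4 RIP than in IgG RIP (log2 -0.78, SE 0.13, edgeR adjusted p = 0.0164) and 2.24-fold lower than in Input (log2 -1.16, SE 0.13, edgeR adjusted p = 0.00287). A lower share in the RIP says that less of this message was recovered relative to the rest of the library, and does not give its amount in the cells. The difference from IgG was below 0 in all 17 alternatives and passed the test in 11. Leaving out CPEB4 RIP replicate 1 or 2 or Input replicate 1 or 2 gave edgeR adjusted p-values of 0.289, 0.311, 0.0512 and 0.0543. The length offset gave an edgeR adjusted p of 0.124. Over IgG RIP, no gene at all was called with the length offset or without CPEB4 RIP replicate 2. Over Input, edgeR no longer called it when CPEB4 RIP replicate 2 was left out (adjusted p = 0.0855) or with the length offset (adjusted p = 0.0687).

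Because the 2 chains are read in the same library, their ratio does not depend on how the library was scaled. Slc7a5 over Slc3a2, in FPKM, was 0.252 and 0.262 with the CPEB4 antibody, 0.0406 and 0.0525 with IgG, and 0.0245 and 0.0295 before precipitation. The CPEB4 RIP ratios were several times those of every other library. With 2 libraries against 2, an exact two-sided permutation test cannot give a p below 0.333, so the ratio is given as a description. The heavy chain remained the more abundant message per length in all 6 libraries.

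**Figure D3:**
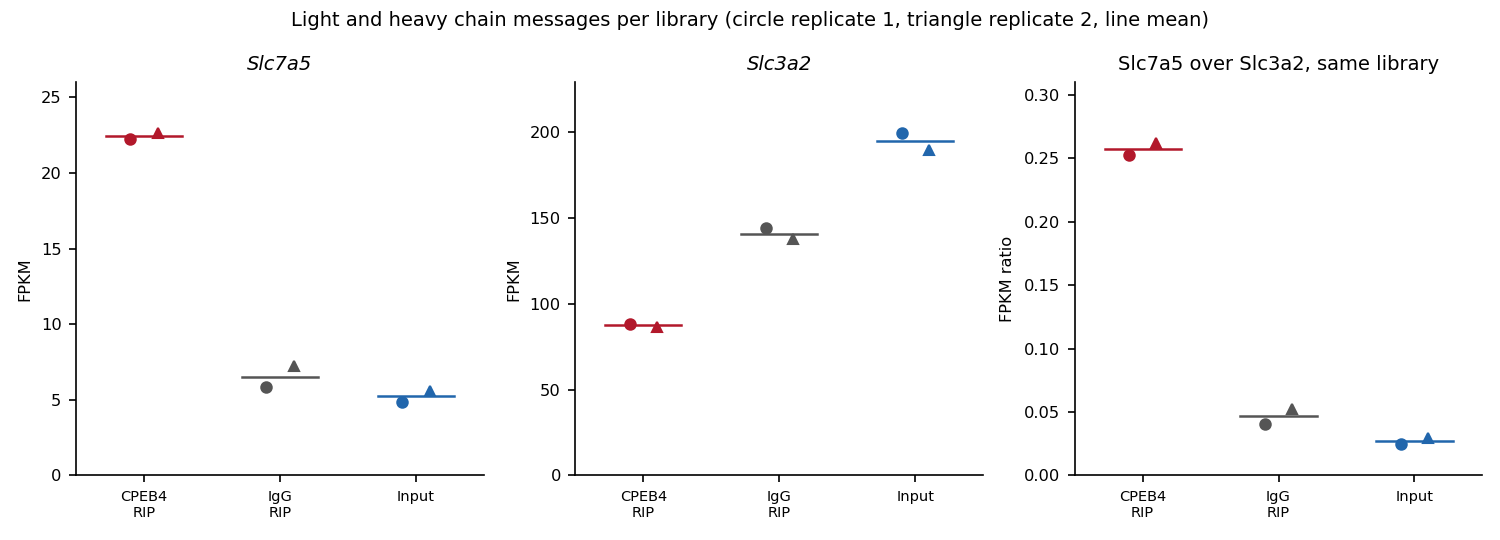
FPKM of Slc7a5 and Slc3a2 and their ratio in each library, with axes from 0. Circles are replicate 1, triangles replicate 2 and lines group means; CPEB4 RIP has the highest light chain, the lowest heavy chain and ratios of 0.252 and 0.262, above the 0.0525 that is the highest elsewhere.

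The CD98 heavy chain pairs with other light chains too, and 4 of the 5 others passed the filter, Slc7a11 among them. Slc7a8, which encodes the LAT2 chain, had 160 ± 13.6 CPM with the CPEB4 antibody, 137 ± 5.78 with IgG and 119 ± 26.8 as input (SD, n = 2). Its log2 difference was 0.22 over IgG RIP (edgeR adjusted p = 0.483) and 0.43 over Input (adjusted p = 0.189). Slc7a6, a light chain for exchange of cationic and neutral amino acids, was at 89.1 ± 7.27, 97.9 ± 11.0 and 98.0 ± 20.7 CPM in the same order. Neither passed the test in either comparison, nor did Slc7a7 at means of 3.49, 2.71 and 6.12 CPM. Whether Slc7a5 differs from these chains in its difference from IgG RIP was not tested.

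Slc7a11, at chr3:50364936-50499087, encodes xCT, the light chain that takes up cystine in exchange for glutamate and so feeds glutathione synthesis. Its counts were low, at 37 and 25 in the CPEB4 libraries, 5 and 8 with IgG and 110 and 54 as input. As CPM these were 3.07 and 1.31, 0.533 and 0.604, and 5.98 and 4.22. The 3 groups did not overlap, with IgG RIP lowest and CPEB4 RIP in between. The log2 difference was 1.91 over IgG RIP (SE 0.68, edgeR adjusted p = 0.125) and -1.23 against Input (SE 0.62, edgeR adjusted p = 0.243), so neither passed. IgG RIP itself was below Input by a log2 of -3.14 (SE 0.69, edgeR adjusted p = 0.199). The difference over IgG RIP passed when IgG RIP replicate 1 or replicate 2 was left out, each time with 1 IgG library assumed to vary like the other groups. Those refits called a far larger share of all genes than the main test. They also called Slc7a11 lower than Input, as did edgeR on the 4 libraries of that comparison, where 43.3% of all genes were called.

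The enzymes that build serine from a glycolytic intermediate were not called by edgeR in any comparison over all 6 libraries. Phgdh (chr3:98313171-98339969), which commits 3-phosphoglycerate to the pathway, was at 21.6 and 19.97 CPM after CPEB4 RIP, 21.9 and 38.3 after IgG RIP, and 23.5 and 23.2 unprecipitated. Both CPEB4 RIP libraries lay below every other, but IgG RIP replicate 1 was close to them. Psat1 (chr19:15905123-15925059), the aminotransferase of the next step, was at 31.9 and 36.3 CPM with the CPEB4 antibody, 24.5 and 47.7 with IgG, and 49.9 and 67.6 before precipitation. Its CPEB4 RIP values fell between the 2 IgG values and below both inputs. Psph, the phosphatase that releases serine, was at 11.9 and 14.9 CPM, 8.96 and 17.6, and 11.3 and 18.8 in the same order, with all 3 groups overlapping. The log2 differences from IgG RIP were -0.54 for Phgdh, -0.09 for Psat1 and 0.01 for Psph, with edgeR adjusted p-values of 0.282, 0.888 and 0.992. Against Input they were -0.17, -0.78 and -0.16, with edgeR adjusted p-values of 0.744, 0.163 and 0.829. DESeq2 called Psat1 lower than Input (adjusted p = 0.0392). So did edgeR on the 4 libraries of that comparison (adjusted p = 0.00254), where 43.3% of all genes were called. Leaving out IgG RIP replicate 1 or 2 also gave this call. Over IgG RIP, calls changed too. Without IgG RIP replicate 2, Psat1 passed as higher in CPEB4 RIP, by 0.62 on the log2 scale. Without IgG RIP replicate 1, Phgdh passed as lower. Each of these refits keeps a single IgG library and called a far larger share of all genes than the main test. Psat1 over Phgdh, in FPKM, was 0.862 and 1.06 in CPEB4 RIP, between the 0.656 and 0.728 of IgG RIP and the 1.24 and 1.70 of Input. Psph, at chr5:129765558-129787443, overlaps Cct6a, a far more abundant gene with 3662 to 6732 counts. The overlap is confined to an end of Psph, since Cct6a begins at chr5:129787356. The strand setting of the counting is not given, so some Psph reads in that stretch may belong to the neighbour.

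Shmt2 and Mthfd2 act one after the other in mitochondria, where Shmt2 moves a carbon unit from serine to folate and Mthfd2 oxidises it. Shmt2 (chr10:127517123-127522444) was at 18.6 and 16.5 CPM in the CPEB4 libraries, 25.9 and 20.4 with IgG and 24.9 and 23.5 as input. Mthfd2 (chr6:83305704-83326011) was at 125 and 133 CPM after CPEB4 RIP, 79.8 and 146 after IgG RIP, and 83.3 and 106 unprecipitated. Shmt2 was thus below both other groups without overlap, and Mthfd2 was above both inputs but within the IgG range. Neither passed the test: the log2 difference was -0.40 for Shmt2 (SE 0.24, edgeR adjusted p = 0.323) and 0.19 for Mthfd2 (SE 0.28, edgeR adjusted p = 0.694) over IgG RIP. Against Input the values were -0.46 (edgeR adjusted p = 0.248) and 0.45 (edgeR adjusted p = 0.338). EdgeR on the 4 libraries of that comparison called Shmt2 lower and Mthfd2 higher, where 43.3% of all genes were called. Of 17 alternatives against Input, 1 called Shmt2 and 3 called Mthfd2. Mthfd2 over Shmt2, in FPKM, was 5.98 and 7.19 with the CPEB4 antibody, 2.74 and 6.39 with IgG, and 2.98 and 4.02 before precipitation, so the CPEB4 RIP ratios lay above the inputs and overlapped IgG RIP. Without IgG RIP replicate 2 the Mthfd2 difference over IgG RIP was 0.83. That refit keeps a single IgG library and called a far larger share of all genes than the main test. Shmt2 overlaps the end of Ndufa4l2, which had 31 to 124 counts.

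Asns and Trib3, which are often used as readouts of ATF4 activity, were both low. Both were lower in CPEB4 RIP than in IgG RIP without passing the main edgeR test. Asns, at chr6:7675165-7693209, makes asparagine from aspartate with glutamine as the nitrogen donor. It was at 3.15 and 6.09 CPM in the CPEB4 libraries, 9.06 and 19.9 with IgG and 10.7 and 13.6 as input. Both CPEB4 RIP libraries lay below the other 4. The log2 difference was -1.64 from IgG RIP (SE 0.49, edgeR adjusted p = 0.0809) and -1.38 from Input (SE 0.48, edgeR adjusted p = 0.111). Trib3 (chr2:152337425-152344060), a pseudokinase that feeds back on ATF4 signalling and binds the kinase AKT, was at 5.80 and 5.20 CPM after CPEB4 RIP, 9.92 and 21.6 after IgG RIP, and 4.84 and 6.87 unprecipitated. Its CPEB4 RIP values lay within the input range, and IgG RIP was the group that stood above. The log2 difference was -1.52 from IgG RIP (SE 0.44, edgeR adjusted p = 0.0770), -0.09 from Input (edgeR adjusted p = 0.920), and 1.44 for IgG RIP over Input (SE 0.44, edgeR adjusted p = 0.233). Over IgG RIP, DESeq2 called both lower, with adjusted p = 0.0158 for Asns and 0.0186 for Trib3. With no low-count filter (5.3% of all genes called) or a mean count of at least 20 (15.8%), edgeR also called both lower. With the replicate block (10.2%) it called Asns lower. Asns was called lower than IgG RIP in 5 of 17 alternatives and Trib3 in 4. Without IgG RIP replicate 1 both were also called by edgeR (adjusted p = 3.18e-06 and 8.45e-06) in a refit that called 37% of all genes, and without replicate 2 the differences were -0.80 and -0.72 (adjusted p = 0.0802 and 0.125). Asns was called lower than Input in 5 of 17 alternatives. DESeq2 called it (adjusted p = 0.0283) with 19.3% of all genes. EdgeR called it with the replicate block (adjusted p = 0.0379, 14.5% of all genes called) and on 4 libraries (adjusted p = 0.00340, 43.3%). It was also called without IgG RIP replicate 1 or 2, in refits that called a far larger share of all genes than the main test.

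Library by library, 2 of the 10 genes lay above IgG RIP without overlap (all genes 29.4%) and 5 below (25.5%). Against Input 2 lay above (34.4%) and 6 below (37.6%), and for IgG RIP against Input 2 lay above (21.4%) and 3 below (20.7%). The median log2 difference of the 10 was -0.24 from IgG RIP and -0.32 from Input, beside medians of -0.07 and -0.06 over all genes tested. Leaving out a library moved the member counts. Without CPEB4 RIP replicate 2, no gene at all was called over IgG RIP, and so no member. Without IgG RIP replicate 1, 2 were called higher (Slc7a11 and Slc7a5) and 4 lower (Trib3, Phgdh, Asns and Slc3a2), while 37% of all genes in that refit were called. Without IgG RIP replicate 2, 4 were higher (Slc7a11, Mthfd2, Slc7a5 and Psat1) and 1 lower (Slc3a2), with 35.1% of all genes called, and the median difference over IgG RIP was 0.34. Against Input, leaving out either IgG RIP library brought 2 higher (Mthfd2 and Slc7a5) and 4 lower (Slc7a11, Asns, Slc3a2 and Psat1), with 38.2% of all genes called without replicate 1 and 37.6% without replicate 2. For IgG RIP against Input, 3 were higher (Trib3, Phgdh and Mthfd2) and 2 lower (Slc7a11 and Slc3a2) without IgG RIP replicate 1, with 32% of all genes called, and 2 lower (Slc7a11 and Psat1) without replicate 2, with 8.23% called.

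The summed CPM of the 10 genes was 760 and 781 with the CPEB4 antibody, 983 and 1049 with IgG, and 1210 and 1235 before precipitation. Slc3a2 alone made up most of that sum in every library. Without it the sums were 334 and 351, 213 and 351, and 239 and 293 CPM, so that CPEB4 RIP was no longer the lowest group. These sums still hold Slc7a5, at 113 and 118 CPM with the CPEB4 antibody, 32.8 and 38.5 with IgG and 25.0 and 29.2 before precipitation. Sums without both genes were not made.

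The message of ATF4 itself was higher in CPEB4 RIP. Atf4 was at 672 and 640 CPM in the CPEB4 libraries, 332 and 301 with IgG and 275 and 260 as input. The log2 difference was 1.05 over IgG RIP (SE 0.14, edgeR adjusted p = 0.00935) and 1.30 over Input (edgeR adjusted p = 0.00267), and the CPEB4 RIP libraries overlapped no other. Of the 14 genes listed as ATF4 and its upstream regulators, all tested, 2 were higher and 1 lower over IgG RIP. Over Input, 4 were higher and 1 lower. Of all genes tested, 8.21% were called over IgG RIP and 12.7% over Input, in either direction. Atf5, a related factor that is also translated under eIF2 phosphorylation, was higher by 1.08 over IgG RIP (edgeR adjusted p = 0.0194) and 1.95 over Input (0.00233). Ppp1r15a, which encodes GADD34, the subunit that directs dephosphorylation of eIF2, was lower by the log2 values -0.83 (edgeR adjusted p = 0.0330) and -1.06 (0.0100). Cebpb, a partner of ATF4 on DNA, was at 72.3 and 89.4 CPM after CPEB4 RIP, 10.02 and 33.1 after IgG RIP, and 4.57 and 6.09 unprecipitated. It passed over Input (log2 3.93, edgeR adjusted p = 0.00530) and not over IgG RIP (log2 1.90, edgeR adjusted p = 0.0548). The remaining gene higher over Input was the stress-induced factor Atf3 (log2 0.59, edgeR adjusted p = 0.0459), which falls outside the rule for named genes and was picked after its values were seen.

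In the other 4 lists together, 4 of 74 genes tested were called over IgG RIP (5.41%) and 7 over Input (9.46%), beside 8.21% and 12.7% of all genes. Of 15 other ATF4 targets tested (16 listed), 1 was higher and 0 lower over each background: Eif4ebp1, which encodes the translation repressor 4E-BP1, by log2 values of 0.75 over IgG RIP (edgeR adjusted p = 0.0366) and 0.83 over Input (0.0180). Of 19 further serine, glycine and one-carbon genes, 0 were higher and 1 lower over IgG RIP, and 1 higher and 2 lower over Input. Mat2a, the synthetase of the methyl donor S-adenosylmethionine, was lower in both (log2 -0.85 and -0.94, edgeR adjusted p = 0.0224 and 0.0106), whereas Ahcy, which hydrolyses the product of methyl transfer, was higher over Input by 0.92 (edgeR adjusted p = 0.0119). Shmt1, the cytosolic counterpart of Shmt2, was lower than Input (log2 -0.67, edgeR adjusted p = 0.0426). Of 17 other amino acid synthesis genes tested (18 listed), none was higher and 2 lower in each comparison. Oat, ornithine aminotransferase, was lower in both (log2 -1.15 and -1.18, edgeR adjusted p = 0.00953 and 0.00424), joined by Cbs over IgG RIP (log2 -1.22, edgeR adjusted p = 0.0348) and Glul over Input (log2 -0.57, edgeR adjusted p = 0.0376). Of 23 other amino acid transporters tested (27 listed), none was called over IgG RIP and 1 was lower than Input, the glutamine carrier Slc1a5 (log2 -1.03, edgeR adjusted p = 0.0185). In IgG RIP against Input no gene of these lists was called.

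The median log2 differences of the lists over IgG RIP, beside -0.07 for all genes tested, were 0.19 for the regulators, 0.07 for other targets, -0.28 for serine, glycine and one-carbon genes, -0.32 for other synthesis genes and -0.16 for other transporters. These are counts and medians of lists chosen with results of these data known, and no list was tested as a set. Of the 7 named genes called over IgG RIP, only Atf4 remained called without CPEB4 RIP replicate 1. None remained without CPEB4 RIP replicate 2, where no gene at all was called. Of the 11 called over Input, Atf4, Atf5 and Cebpb remained when either CPEB4 RIP library was left out, 4 remained without Input replicate 1 and 7 without Input replicate 2; all kept their sign in these refits. The length offset called no gene at all over IgG RIP and so kept 0 of the 7. Over Input it kept 3 of the 11 and called 3.66% of all genes. Limma on unfiltered log2(FPKM + 1) kept 3 over IgG RIP (Atf4, Atf5 and Oat) and 4 over Input (these and Cebpb).

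**Figure D4:**
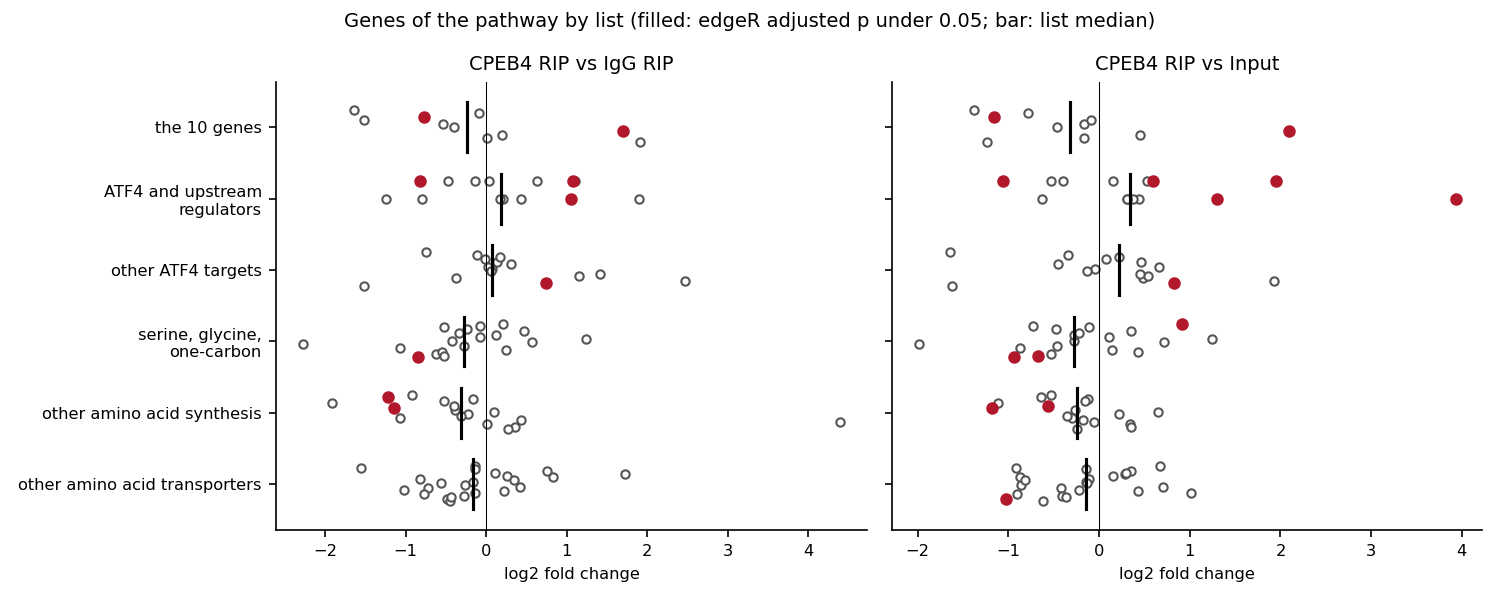
Fitted log2 fold changes of the 10 genes and of 5 lists of related genes, in CPEB4 RIP against IgG RIP (left) and against Input (right). Each point is a gene, filled where it passed the edgeR test at an adjusted p under 0.05, and bars are list medians; filled points stand on both sides of 0.

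The mean profile of the 10 genes over the 6 libraries, each gene centred on its own mean log2 CPM, was -0.13 in both CPEB4 RIP libraries, -0.32 and 0.25 with IgG, and 0.06 and 0.26 as input. The widest gap in that profile was between the 2 IgG RIP libraries. The genes did not share this profile: Pearson r with Slc7a5 ran from -0.987 for Slc3a2 to 0.620 for Mthfd2. The mean therefore joins genes that moved in opposite directions. Among 7398 other genes with a mean of at least 10 CPM, those whose values followed it most closely were Stam2 (Pearson r = 0.996 over 6 libraries), Iqcb1 (0.990), Mpzl1 (0.989), Fpgt (0.986) and Cstf2 (0.984). The correlations are a description over 6 libraries, which fall into groups and differ in depth, and genes were picked for the height of r.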

How the data were processed

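Reads of 6 libraries were aligned with HISAT2 to mm10 and counted with featureCounts, per the submitters' processing notes. Not given in the sources used here were versions, annotation, strand setting and handling of multi-mapping reads. The authors deposited raw counts per gene, totalling 9018323 to 20843042 per library. They also deposited FPKM, fragments per gene length scaled by a library total that no source used here defines. Reads carry no molecular identifiers, so depth counts reads and not molecules.

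The analysis used edgeR 4.0.16 under R 4.3.3. Genes passing filterByExpr (minimum count 10, minimum total 15) were scaled by TMM and fitted with glmQLFit and glmQLFTest over all 6 libraries, with group as the only term and 3 residual degrees of freedom. Tests were two-sided, with Benjamini-Hochberg adjustment over 18054 genes at 0.05. Named were the 10 genes, up to 4 genes per list with the smallest adjusted p past 0.05, Atf4, and the 5 genes closest to the mean profile. SE is the log2 fold change over the square root of F. Alternatives were DESeq2 1.42.0, other scalings and filters, limma 3.58.1 on log2(FPKM + 1) and log2(FPKM + 0.1), the 4 libraries of a comparison alone, a replicate block, leaving out each library, and a gene length offset. Scripts were tested on simulated data. Promoters and positions are from RefSeq on GRCm38.p6. The members and lists were chosen with earlier results of these data known.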

Additional observations from a re-analysis of the deposited data

How the results depend on the processing

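The 17 alternatives kept the direction of Slc7a5 and Slc3a2 in both CPEB4 RIP comparisons. Genes called over IgG RIP, 1482 in the report, were 2892 by DESeq2, 2428 with no filter and 973 with only the 4 libraries compared. They were 318 by limma on unfiltered log2(FPKM + 1), and 0 to 7710 on leaving out 1 library. The gene length offset, which was added after seeing the data, gave 0. Genes tested were 18054 in the report, 45787 with no filter and 13216 with a mean count of at least 20. The shares called over IgG RIP in these were 8.21%, 5.3% and 15.8%. The share was 6.29% with 4 libraries, 0.695% by limma on unfiltered log2(FPKM + 1), and 0 to 37% on leaving out 1 library. Over Input, 2294 became 3479 by DESeq2, 7340 with 4 libraries, 908 on unfiltered FPKM and 661 with the length offset. On leaving out 1 library the count was 117 to 7966. The share called over Input was 12.7% in the report, 6.4% with no filter and 21.2% with a mean count of at least 20. It was 43.3% with 4 libraries and 1.98% on unfiltered FPKM. For IgG RIP over Input, 0 became 706 by DESeq2, 457 with no filter, 5 by limma with a pseudocount of 0.1, 1 with a pseudocount of 1 with or without the filter, and 0 to 6657 on leaving out 1 library. Of the 10 genes, those higher than IgG RIP (1) were 0 with the length offset and 0 to 4 without 1 library. Those lower (1) were 3 by DESeq2, with a mean count of at least 20 or with no filter, 0 with the length offset or on unfiltered FPKM, and 0 to 4 without 1 library. Against Input, those higher (1) were 2 with 4 libraries and 1 to 2 without 1 library, and those lower (1) were 3 by DESeq2, 5 with 4 libraries, 0 with the length offset and 0 to 4 without 1 library. For IgG RIP over Input, 0 higher became 0 to 3 and 0 lower 0 to 2 without 1 library, and 1 lower with no filter. Uncalled genes near 0 changed sign. Over IgG RIP, Psat1 was 0.080 and 0.058 on FPKM with pseudocounts of 0.1 and 1 and -0.30 to 0.62 without 1 library, Phgdh -0.70 to 0.062 without 1 library, and Psph -0.051 with library size alone, -0.053 with a mean count of at least 20, -0.13 with the length offset and -0.20 to 0.73 without 1 library. Over Input, Psph was 0.059 with the length offset and -0.47 to 0.26 without 1 library, and Trib3 0.026 with no filter and -0.30 to 0.20 without 1 library. For IgG RIP over Input, Psph and Shmt2 were 0.19 and 0.20 with the length offset, and without 1 library Asns was -0.49 to 0.59, Mthfd2 -0.32 to 0.51, Phgdh -0.17 to 0.59, Psph -0.81 to 0.11 and Shmt2 -0.37 to 0.024. The cause was not tested. Replicate numbers are not stated to pair libraries, and deviations of same-numbered libraries correlated at 0.133 (CPEB4 and IgG RIP), -0.0160 (CPEB4 RIP and Input) and 0.0697 (IgG RIP and Input). With a replicate block, 2 genes were lower over IgG RIP and 2 over Input (Asns and Slc3a2 in both), and 25 genes were called for IgG RIP over Input. Among the 10 genes Slc7a11 had the fewest reads, 5 and 8 counts in IgG RIP.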
